A study of Macaca mulatta with 80 samples.

Results

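Newborn CA3 was compared with newborn CA1, which are 2 of 5 regions of the hippocampal formation measured in rhesus monkeys (Macaca mulatta), on 8 of the 80 arrays of the study. The 8 arrays were all those labelled newborn CA3 (4 arrays) and newborn CA1 (4 arrays), and 19775 genes were tested. Animals were 16 males without any treatment named in the labels, 4 of them newborn (1 day old), and the adults used below for reference were 4 males of 6 to 12 years. They were killed with an overdose of sodium pentobarbital, and each region was cut out of frozen sections through all of its layers, in the middle of its transverse extent. Every array read 1 region of 1 animal, so that the samples are bulk tissue of neurons, glia and vessels. CA3 and CA1 arrays were paired by the number in their titles (13, 14, 15 and 16), which was taken as the animal. The array is the Affymetrix human HG-U133 Plus 2 design, so probes with mismatches to macaque transcripts give low signals in any region.

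CA3 and CA1 are the 2 large pyramidal fields of the hippocampus. CA3 pyramidal cells receive mossy fibres from the granule cells of the dentate gyrus (DG) and excite one another through recurrent collaterals. Their Schaffer collaterals reach CA1, whose pyramidal cells send the output of the hippocampus to the subiculum (Sub) and the entorhinal cortex (EC). Levels are log2 signals after quantile normalization, and a difference is the mean of the 4 paired log2 differences, CA3 minus CA1, so that positive values are higher in CA3. SE is that of the limma contrast, adjusted p is limma's after Benjamini-Hochberg over all genes, and a gene was called at an adjusted p below 0.05. Array values are given in the order of numbers 13, 14, 15 and 16, and n = 4 pairs throughout. Where 2 values follow a gene in brackets, they are its difference and its adjusted p. Levels of different genes come from different probes and are not compared.

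The 4 CA3 arrays did not read alike. The mean of 22 of the 45 gene lists was higher on CA3 numbers 13 and 16 than on 14 and 15, with the widest gaps for subicular neurons (0.703), kainate receptors (0.338) and myelin (0.304), and that of 7 lists was lower. Neurotensin (NTS), a peptide that read 8.89 on average in newborn Sub and 4.23 in newborn DG, read 7.61, 4.33, 4.91 and 7.92 in CA3 and 9.29, 8.85, 8.84 and 9.13 in CA1. SLC17A6, the vesicular glutamate transporter VGLUT2, read 6.35, 4.92, 5.44 and 6.51 in CA3, 5.08, 5.40, 5.70 and 5.93 in CA1 and 8.01 in Sub. MBP, the myelin basic protein, read 12.37, 10.88, 11.39 and 12.45 in CA3 and 12.51, 12.03, 11.72 and 12.91 in CA1. The mean of 9 genes listed for subicular neurons was 7.94, 6.96, 7.24 and 8.08 on the CA3 arrays, 7.73 to 7.92 on the CA1 arrays and 8.55 in Sub. CA3 number 14 stood apart from the other 3 in another way: its mean correlation with its own group was 0.9833 against 0.9874 to 0.9882. It was the lowest CA3 array for 710 of the 1043 genes called higher in CA1 and the highest for 525 of the 802 called higher in CA3. The other CA3 arrays were lowest for 64 to 194 and highest for 48 to 180 of these genes. The calls rest on the same array values, and the order of the arrays over all genes was not counted. The mean of 12 genes listed for CA1 pyramidal neurons was 6.34 on CA3 number 14, 6.97 to 7.09 on the other CA3 arrays and 7.44 to 7.63 on the CA1 arrays. What these array differences contribute to the results was not tested beyond leaving arrays out.

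**Figure D1:**
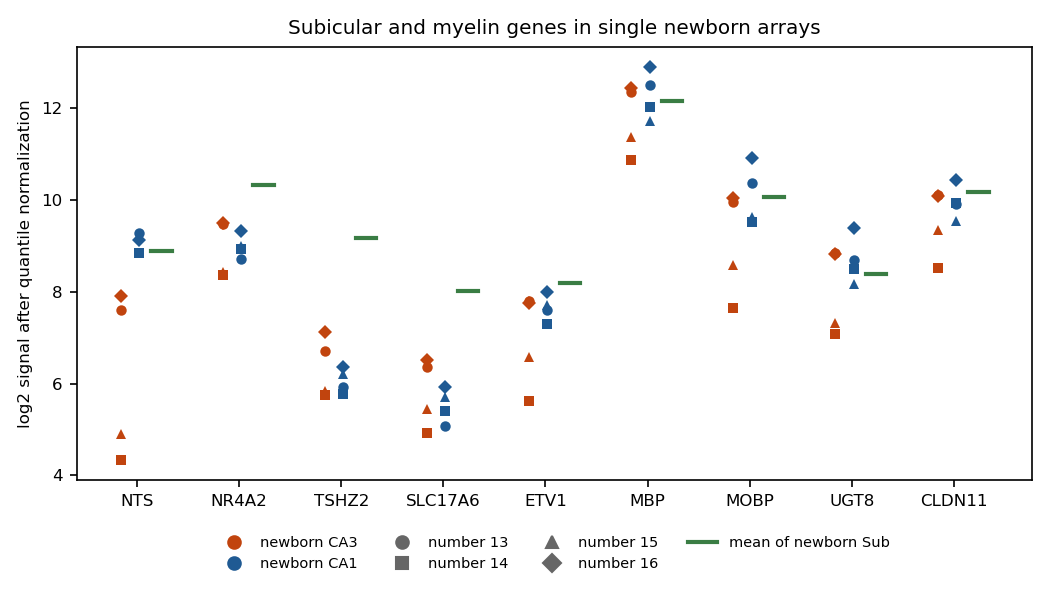
Log2 signal (vertical axis) of 4 genes of the subicular list, of ETV1 and of 4 myelin genes on single newborn CA3 and CA1 arrays, with marker shapes for the numbers and a bar for the mean of 4 newborn Sub arrays. For all 9 genes CA3 numbers 13 and 16 lie above CA3 numbers 14 and 15, and for NTS they lie at 7.61 and 7.92 against 4.33 and 4.91. The genes shown are a selection from lists of 9 subicular and 24 myelin genes measured, so their common order does not stand for all members. BCL11B, a subicular gene not shown, was low on CA3 number 14 alone (6.73 against 8.28 to 8.47).

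The probe sets of GAPDH that show RNA integrity also differed between the regions. The log2 ratio of the 3' to the 5' end, which rises when long RNA is lost, was 1.14 ± 0.0717 (SD, n = 4) in CA3 and 1.37 ± 0.0631 in CA1, and the groups did not overlap (1.08 to 1.24 against 1.29 to 1.43). It was lower in CA3 in all 4 pairs, by a mean of −0.222 (SD 0.0556). The actin ratio was lower in CA3 by a mean of −0.295 (SD 0.199), also in all 4 pairs. Region and ratio move together here, and their parts in the results cannot be told apart: with the ratio difference of each pair as a covariate limma called 0 genes, with 951 at an unadjusted p below 0.05 against 5127 without it. That fit has 2 residual degrees of freedom and estimates the difference at an equal ratio, which no pair had.

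Between newborn CA3 and CA1, 1845 genes differed (9.33% of those tested). Of these, 802 (4.06%) were higher in CA3 and 1043 (5.27%) higher in CA1, and 1816 had the same sign in all 4 pairs. Most differences were small, with a median size of 0.47 among the called genes. Over 1 log2 there were 84, of which 28 were higher in CA3 and 56 higher in CA1. The share of calls higher in CA3 was 43.5%, while it was 34.2% when the deposited values were used without normalization and 31.5% after median centring of the arrays. Without pair 13, 14 or 15 the calls fell to 487, 663 and 392, and without pair 16 they were 2713. With pairs 14 and 15 alone, which leaves 1 residual degree of freedom and which was chosen after the array values had been seen, 4153 genes were called. Of 162 called genes named by a set rule, 61 kept the call without each of the 4 pairs in turn: all with an adjusted p below 0.0111 kept it, and all with one above 0.0117 lost it without at least 1 pair. The values of the CA3 and CA1 arrays did not overlap for 1859 genes (9.4%) higher in CA3 and 1452 (7.34%) higher in CA1. In bulk samples, fewer cells of a type and less RNA per cell cannot be told apart.

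**Figure D2:**
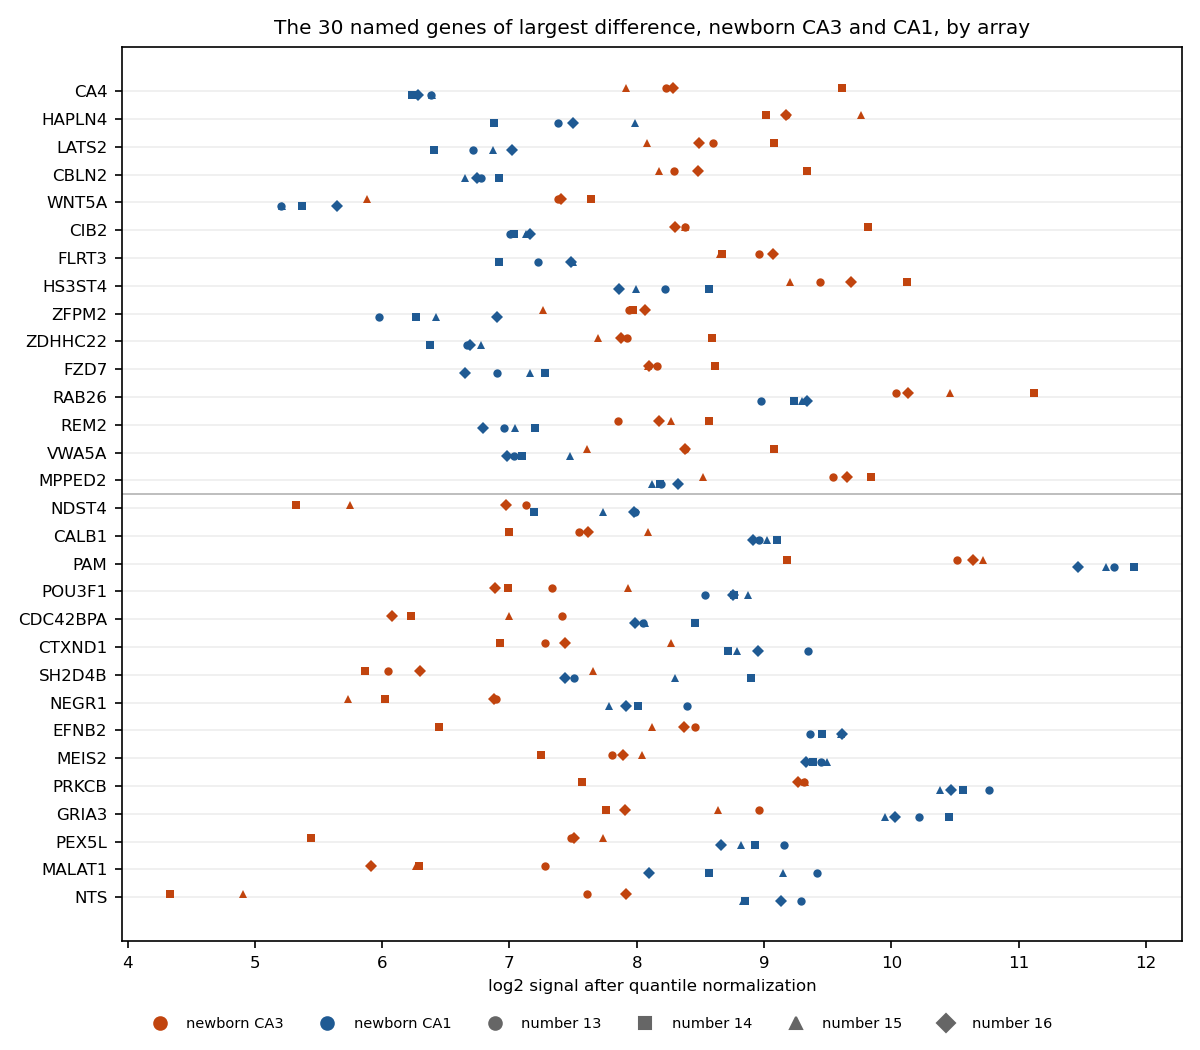
Log2 signal (horizontal axis) of the 15 named genes with the largest differences higher in CA3 (upper rows), taken among characterised genes with a group mean above the median gene mean, and the 15 higher in CA1 (lower rows) on the 8 newborn arrays, with colour for the region and marker shape for the number. CA3 number 14 lies farthest from CA1 for CA4, CIB2, PEX5L, PRKCB and EFNB2, while CA3 number 15 lies nearest for WNT5A, and MALAT1 does not overlap between the regions.

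Among genes above the median level, those with the largest differences higher in CA3 included an extracellular enzyme, secreted synapse and matrix proteins and a Wnt ligand. CA4 codes for carbonic anhydrase 4, an enzyme on the cell surface, and the symbol does not stand for a hippocampal field. It read 8.23, 9.62, 7.91 and 8.29 in CA3 and 6.38, 6.24, 6.39 and 6.28 in CA1, a difference of 2.19 (SE 0.24, adjusted p = 0.00267). All CA3 arrays lay above all CA1 arrays, and number 14 was the highest. Without pair 14 the difference was 1.79 (adjusted p = 2.68e-05). HAPLN4 is a link protein of perineuronal nets, the matrix around some neurons. Its values were 9.17, 9.02, 9.76 and 9.17 in CA3 and 7.38, 6.88, 7.99 and 7.50 in CA1, a difference of 1.84 (SE 0.093, adjusted p = 3.88e-05). The pairs differed by like amounts although number 15 was the highest in both regions. Cerebellin 2 (CBLN2), a secreted organiser of synapses that binds neurexins, read 8.29, 9.34, 8.17 and 8.48 in CA3 and 6.77, 6.92, 6.65 and 6.75 in CA1, a difference of 1.80 (SE 0.14, adjusted p = 0.000558). Again number 14 was highest in CA3, and the groups did not overlap.

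LATS2, a kinase of the Hippo pathway, read 8.60, 9.07, 8.08 and 8.49 in CA3 and 6.71, 6.41, 6.87 and 7.02 in CA1, a difference of 1.81 (SE 0.19, adjusted p = 0.00247). The lowest CA3 array, number 15, was still above the highest CA1 array, and 3 of 3 other probe sets of the gene had the same sign. WNT5A, a secreted Wnt ligand, read 7.38, 7.64, 5.88 and 7.41 in CA3 and 5.21, 5.37, 5.22 and 5.64 in CA1, a difference of 1.72 (SE 0.22, adjusted p = 0.00448). CA3 number 15 stood well below the other CA3 arrays and just above the highest CA1 array. Without pair 15 the difference of WNT5A was 2.07 (adjusted p = 0.000327). FLRT3, an adhesion protein that binds latrophilins and UNC5 receptors, read 8.96, 8.67, 8.65 and 9.07 in CA3 and 7.22, 6.92, 7.50 and 7.48 in CA1, a difference of 1.56 (SE 0.11, adjusted p = 0.000385). Its groups did not overlap, and its level in DG (10.35) was above both. HS3ST4, which adds sulfate to heparan sulfate chains, was higher in CA3 by 1.45 (SE 0.11, adjusted p = 0.000558).

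The other genes of the 15 were CIB2, a calcium and integrin binding protein (1.64), ZFPM2, a cofactor of GATA transcription factors (1.42), the palmitoyltransferase family member ZDHHC22 (1.39), and FZD7, a Wnt receptor of the Frizzled family (1.24). RAB26, a small GTPase of vesicles (1.22), REM2, a GTPase that inhibits voltage-gated calcium channels (1.22), VWA5A (1.21) and the metallophosphoesterase MPPED2 (1.18) completed them. Adjusted p-values of these 8 lay between 0.000558 and 0.0167. CIB2 rested in part on CA3 number 14, at 9.82 against 8.30 to 8.38 on the other CA3 arrays, and was higher in CA3 by 1.25 without that pair (adjusted p = 0.000158). VWA5A was the only one of the 15 to lose its call without a single pair (adjusted p = 0.0681 without pair 13), and its other probe set had the opposite sign.

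On the CA1 side the largest differences belonged to a peptide, a nuclear RNA, an AMPA receptor subunit and a partner of HCN channels. NTS, whose array values are given above, was higher in CA1 with a difference of −2.83 (SE 0.46, adjusted p = 0.0107). All 4 CA1 arrays lay above all CA3 arrays, but the distance was small for numbers 13 and 16 and large for 14 and 15. The pair differences of NTS were −1.68, −4.51, −3.93 and −1.22. MALAT1, a long noncoding RNA of the nucleus, read 7.28, 6.29, 6.27 and 5.91 in CA3 and 9.42, 8.56, 9.15 and 8.10 in CA1, a difference of −2.37 (SE 0.12, adjusted p = 3.88e-05). The groups did not overlap, and 11 of 11 other probe sets had the same sign. The size depended on the probe set: the difference of MALAT1 was −1.48 (adjusted p = 0.0228) with that of highest mean over the 8 arrays and −0.62 (adjusted p = 0.00928) with the mean of all its probe sets. Its mean levels in DG, EC and Sub were 9.80, 8.76 and 10.19. GRIA3, a subunit of AMPA receptors, read 8.96, 7.76, 8.64 and 7.91 in CA3 and 10.22, 10.46, 9.95 and 10.03 in CA1, a difference of −1.85 (SE 0.21, adjusted p = 0.0029). Its groups did not overlap, and 4 of 4 other probe sets had the same sign.

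PEX5L, known as TRIP8b, binds HCN channels and sets where they sit in CA1 dendrites. It read 7.49, 5.44, 7.73 and 7.51 in CA3 and 9.16, 8.93, 8.82 and 8.67 in CA1, a difference of −1.85 (SE 0.32, adjusted p = 0.0136). CA3 number 14 was far below the others, and the difference was −1.30 without that pair (adjusted p = 0.000488) and not called without pair 13 (adjusted p = 0.0515). PRKCB, protein kinase C beta, read 9.31, 7.57, 9.32 and 9.27 in CA3 and 10.77, 10.56, 10.38 and 10.46 in CA1, a difference of −1.68 (SE 0.26, adjusted p = 0.00894). Number 14 was again the low CA3 array, and without it the difference of PRKCB was −1.24 (adjusted p = 0.000283). MEIS2, a homeobox transcription factor, read 7.80, 7.25, 8.04 and 7.90 in CA3 and 9.45, 9.38, 9.50 and 9.33 in CA1, a difference of −1.67 (SE 0.12, adjusted p = 0.000385). For this gene both groups were tight and far apart, and DG was lower still at 5.999.

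Also among the 15 were EFNB2, the ligand ephrin-B2 (−1.66), the neuronal adhesion protein NEGR1 (−1.64), SH2D4B (−1.57), CTXND1 (−1.47), the CDC42-binding kinase CDC42BPA (−1.46) and the POU homeobox factor POU3F1 (−1.44). PAM, the enzyme that amidates neuropeptides (−1.44), CALB1, the calcium buffer calbindin (−1.44), and NDST4, an enzyme that modifies heparan sulfate (−1.43), were the others. Adjusted p-values of these 9 lay between 0.00105 and 0.0169. SH2D4B and PAM lost the call without pair 13 (adjusted p = 0.0619 and 0.0515). The other probe sets did not all follow: 1 of 4 of CDC42BPA and 0 of 1 of NDST4 had the same sign, against 3 of 3 of NEGR1 and 2 of 2 of PAM. With the mean of all probe sets of a gene in place of 1 probe set, 77 of the 162 named calls had a difference more than 1.5 times smaller and 47 were no longer called, CDC42BPA (−0.28, 0.0598) and VWA5A (0.58, 0.058) among them, and all 162 had the same sign.

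Levels in the other 3 newborn regions placed these genes. Of the 802 genes called higher in CA3, 470 (58.6%) had their highest mean of the 5 regions in CA3 and 405 (50.5%) their lowest in CA1, and some had both. Of the 1043 called higher in CA1, 573 (54.9%) were highest in CA1 and 609 (58.4%) lowest in CA3. Over all genes, 29.3% were highest in CA3 and 14.2% in CA1, and 16.4% were lowest in CA3 and 18.1% in CA1, but calls are high in the one region and low in the other by the way they were called. CA4, at 8.51 in CA3, read 7.13 in DG, 6.16 in Sub and 6.47 in EC, so that CA3 was above all 4 other regions. HAPLN4 was at 8.80 in Sub, near its 9.28 in CA3, and at 6.25 in DG. ZFPM2 was highest in DG (9.67), with CA3 at 7.81 and CA1 at 6.39. Calbindin was at 8.96 in DG and 9.001 in CA1, and lower in CA3 (7.57) and Sub (6.70).

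**Figure D3:**
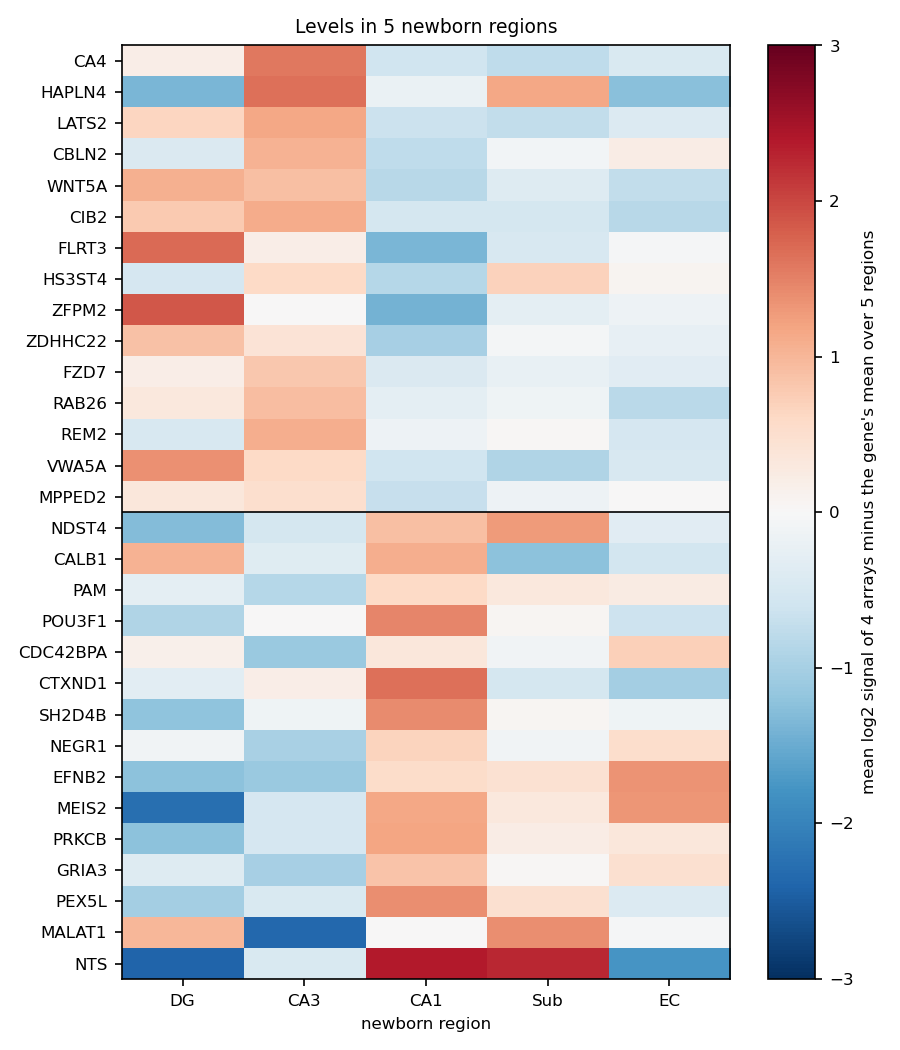
Mean log2 signal of 4 newborn arrays in each of 5 regions (columns), as the difference from the mean of the 5 regions. Rows are the 30 named genes of largest difference among characterised genes with a group mean above the median gene mean. The upper 15 were higher in CA3 and the lower 15 higher in CA1. CA4 was highest in CA3, FLRT3 and ZFPM2 were highest in DG, NTS was high in CA1 and Sub, and MALAT1 was lowest in CA3.

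Genes listed as markers of the pyramidal fields followed the labels in part. Of 12 measured genes listed for CA1 pyramidal neurons, 8 were higher in CA1 and 0 higher in CA3, with a list median of −0.78 against 0.034 over all genes tested. Those called were PEX5L, POU3F1 and NDST4 (above), CCN3 (−0.86, 0.00895), the receptor tyrosine kinase MET (−0.89, 0.0228), MPPED1 (−0.84, 0.0111), the thyroid hormone binding protein CRYM (−0.50, 0.0273) and MAN1A1 (−0.39, 0.0227). POU3F1 read 7.34, 6.99, 7.94 and 6.89 in CA3 and 8.53, 8.76, 8.87 and 8.76 in CA1 (SE 0.15, adjusted p = 0.00182), without overlap. Not called were WFS1 (0.057, 0.776) and FIBCD1 (0.098, 0.486), which mark CA1 in mice, ETV1 (−0.72, adjusted p = 0.0995) and DCN (0.31, 0.0755). Leaving out single pairs, 4 to 8 members were higher in CA1.

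Of 12 measured genes listed for CA3 pyramidal neurons, 5 were higher in CA3 and 0 higher in CA1, with a list median of 0.24. CPNE4, a calcium-dependent membrane-binding copine, read 9.79, 9.86, 9.72 and 9.71 in CA3 and 9.02, 9.30, 9.11 and 9.08 in CA1, a difference of 0.64 (SE 0.077, adjusted p = 0.00374). The groups did not overlap. ELAVL2, a neuronal RNA-binding protein, read 9.84, 9.85, 9.01 and 9.80 in CA3 and 8.93, 8.88, 8.83 and 8.76 in CA1, a difference of 0.77 (SE 0.13, adjusted p = 0.0132). CA3 number 15 was the low one and lay only just above CA1. SOCS2, a suppressor of cytokine signalling (0.70, 0.00564), the tetraspanin TSPAN18 (0.60, 0.0163) and the ubiquitin ligase RNF182 (0.36, 0.0242) were also higher in CA3. The kainate receptor subunit GRIK4, a CA3 marker in rodents, was at 5.63 in CA3 and 5.70 in CA1 and was not called (adjusted p = 0.731), nor was the adhesion protein NECTIN3 (0.22, 0.377). GRIK4 was dim in both regions, below the median gene mean of 5.98, and whether its signal exceeds background was not measured. Leaving out single pairs, 2 to 5 members were higher in CA3.

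Of 8 genes listed for CA2, the small field between CA3 and CA1, 3 were higher in CA3 and 0 higher in CA1. These were the signalling regulator RGS14 (0.55, 0.0211), the calmodulin regulator PCP4 (0.61, 0.0344) and the adhesion protein AMIGO2 (0.41, 0.0171). RGS14 read 9.04, 9.29, 9.42 and 8.94 in CA3 and 8.88, 8.58, 8.56 and 8.48 in CA1 (SE 0.11, adjusted p = 0.0211), with all CA3 arrays above CA1 and 7.59 in DG. PCP4 was at 10.70 in Sub and lost its call without pair 13 or 14 (adjusted p = 0.119 and 0.0852). Among 9 granule cell genes only CALB1 was called, higher in CA1, a share of 11.1% against 9.33% of all genes tested. The peptide gene GRP, which read 9.72 in DG, was at 7.46, 5.76, 7.91 and 7.44 in CA3 and 6.19, 6.53, 6.32 and 6.96 in CA1 and was not called (0.64, adjusted p = 0.217). CA3 number 14 lay below its CA1 partner for GRP while the other CA3 arrays lay above theirs. Of 5 genes of hilar mossy cells, CALB2 (calretinin) was higher in CA3 (0.51, 0.0192) and CARTPT, a peptide precursor, higher in CA1 (−0.35, 0.0291). Of 9 subicular genes, NTS and the zinc finger factor BCL11B (−1.11, 0.0309) were higher in CA1 and LPL, lipoprotein lipase, higher in CA3 (0.90, SE 0.14, adjusted p = 0.00845).

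**Figure D4:**
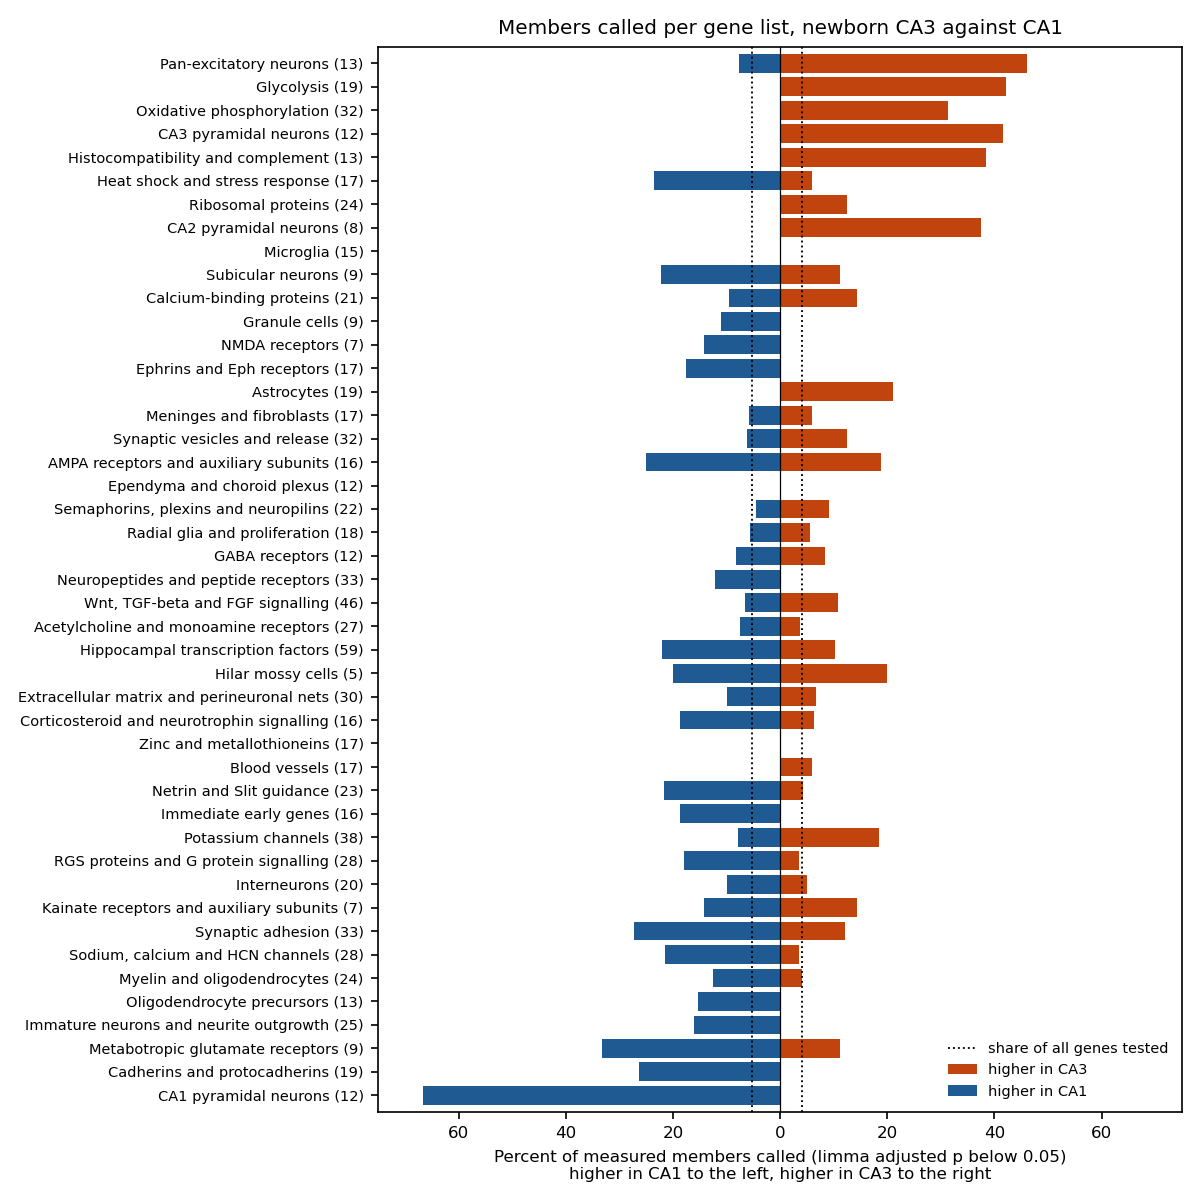
Percent of the measured members of each of 45 gene lists (number measured in brackets) that were called higher in CA3 (bars to the right) or higher in CA1 (bars to the left), with lists ordered by their median difference and dotted lines at the shares of all genes tested, 4.06% and 5.27%. The longest bars are 8 of 12 CA1 pyramidal genes to the left and 6 of 13 pan-excitatory genes to the right.

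Glutamate receptor genes differed by subunit. AMPA receptors carry fast excitation and are joined by auxiliary proteins that set their gating and place. Of 16 such genes 4 were higher in CA1 and 3 higher in CA3. The pore subunits GRIA3 (above), GRIA2 and GRIA1 were higher in CA1. GRIA2, which limits the calcium entry of the receptor, read 10.46, 9.60, 9.97 and 10.24 in CA3 and 11.39, 11.34, 11.30 and 11.03 in CA1, a difference of −1.20 (SE 0.14, adjusted p = 0.00327). GRIA1 read 8.43, 8.01, 8.56 and 8.43 in CA3 and 9.17, 9.19, 9.18 and 8.69 in CA1, a difference of −0.70 (SE 0.13, adjusted p = 0.0153). For both subunits every CA1 array was above every CA3 array, although GRIA1 lost the call without pair 13 or 15 (adjusted p = 0.0629 and 0.058). GRIA4 was not called (0.12, adjusted p = 0.621).

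The auxiliary genes went both ways. SHISA6, which slows desensitization, read 10.72, 10.998, 10.70 and 10.85 in CA3 and 10.23, 10.40, 10.23 and 9.90 in CA1, a difference of 0.63 (SE 0.095, adjusted p = 0.00845). The groups did not overlap. CACNG2, the regulatory protein stargazin, was higher in CA3 (0.38, adjusted p = 0.0313) and its relative CACNG3 higher in CA1 (−0.51, adjusted p = 0.0375), each without its call when pair 13, 14 or 15 was left out in turn (adjusted p up to 0.125 and 0.0861). NPTX1, a pentraxin that gathers receptors at synapses, read 10.19, 10.29, 9.23 and 9.74 in CA3 and 8.89, 8.74, 9.45 and 8.93 in CA1, a difference of 0.86 (adjusted p = 0.0465). Its pair 15 had the opposite sign, and it was not called without pair 13, 14 or 16 (adjusted p up to 0.172).

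Of 7 NMDA receptor genes 14.3% were called, against 9.33% of all genes tested. The only one called was GRIN2B, the subunit that predominates early in development. It read 7.41, 6.70, 7.14 and 7.14 in CA3 and 8.30, 8.37, 8.20 and 7.995 in CA1, a difference of −1.12 (SE 0.13, adjusted p = 0.00327), and 1 of 2 other probe sets had the same sign. Every CA1 array was above every CA3 array. GRIN2A was at −0.50 (adjusted p = 0.0573) and the obligatory subunit GRIN1 at 0.15 (adjusted p = 0.31), neither of them called. Kainate receptors sit at mossy fibre synapses of CA3, and none of their 5 subunit genes was called, with differences from −0.21 (GRIK2) to 0.18 (GRIK5) and adjusted p-values of 0.186 or more. Their auxiliary proteins differed in opposite directions: NETO1 was higher in CA3 (0.56, adjusted p = 0.0211) and NETO2 higher in CA1 (−0.73, adjusted p = 0.0152). NETO1 was not called without pair 13 or 14 and NETO2 not without pair 15 (adjusted p up to 0.0854 and 0.0735). Among 9 genes of metabotropic receptors and their scaffolds, GRM5 (−1.07, 0.0105), HOMER1 (−0.94, 0.0117) and GRM7 (−0.50, 0.0213) were higher in CA1 and HOMER3 higher in CA3 (0.55, 0.0444). HOMER1 and GRM5 work together, since Homer proteins tie this receptor to its calcium stores.

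Genes for inhibition and modulation gave single calls. The share called was 16.7% of the GABA receptor list and 11.1% of the acetylcholine and monoamine list, against 9.33% of all genes tested. Of 12 GABA receptor genes, the A-type subunit GABRB2 was higher in CA1 (−0.91, adjusted p = 0.0256) and the B-type receptor GABBR1 higher in CA3 (0.49, adjusted p = 0.0206). Of 27 acetylcholine and monoamine receptor genes, HTR1E, a serotonin receptor, read 6.74, 7.24, 6.79 and 6.66 in CA3 and 6.07, 6.14, 6.20 and 6.10 in CA1, a difference of 0.73 (SE 0.10, adjusted p = 0.00563). All CA3 arrays were above CA1. The adrenergic receptor ADRB1 (−0.87, adjusted p = 0.0107) and the serotonin receptor HTR2C (−0.77, adjusted p = 0.0252) were higher in CA1, HTR2C with a call that was lost without pair 13, 14 or 15 (adjusted p up to 0.101).

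Potassium channel genes differed in both directions, 7 of 38 higher in CA3 and 3 higher in CA1. KCNQ5, a subunit of the M-current that damps repetitive firing, read 6.14, 6.03, 5.45 and 6.17 in CA3 and 4.45, 4.62, 4.66 and 5.13 in CA1, a difference of 1.23 (SE 0.13, adjusted p = 0.00255). All CA3 arrays lay above CA1, with number 15 the lowest. KCNQ5 was dim, with both group means below the median gene mean of 5.98, and a filter on dim genes left it out. KCNMB4, a subunit of the large calcium-activated channel, read 10.27, 10.70, 10.01 and 10.43 in CA3 and 9.46, 9.34, 9.27 and 9.45 in CA1, a difference of 0.97 (SE 0.11, adjusted p = 0.00276). This gene kept its call without each pair. KCNC1, a fast Kv3 channel (0.83, 0.02), and the auxiliary subunit KCNAB2 (0.54, 0.0212) were also higher in CA3. KCND2, which carries A-type current, was higher in CA1 (−0.61, adjusted p = 0.0183). KCND2 lost the call without pair 13 (adjusted p = 0.0689). KCNC1 kept it in 2 and KCNAB2 in 1 of the 4 fits that left out a pair (adjusted p up to 0.0828 and 0.107).

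Among 28 genes of sodium, calcium and HCN channels and of intracellular calcium release, 6 were higher in CA1 and 1 higher in CA3. The R-type calcium channel CACNA1E read 8.56, 8.10, 8.75 and 8.65 in CA3 and 9.68, 9.58, 9.70 and 9.31 in CA1, a difference of −1.05 (SE 0.12, adjusted p = 0.00323). With the mean of all probe sets of CACNA1E it was −0.30 and not called (adjusted p = 0.061). The release channels RYR3 (−0.86, 0.00563) and ITPR1 (−0.69, 0.0125) were also higher in CA1. The gene higher in CA3 was the auxiliary calcium channel subunit CACNA2D3, at 10.28, 10.48, 9.83 and 10.34 in CA3 and 9.38, 9.31, 9.38 and 9.24 in CA1, a difference of 0.91 (SE 0.12, adjusted p = 0.00484). Its groups did not overlap. Of 21 calcium-binding proteins and kinases, CALB1 and the calmodulin kinase CAMK2D (−1.26, adjusted p = 0.00895) were higher in CA1, and PVALB, PCP4 and CALB2 higher in CA3. CALB1 read 7.55, 6.999, 8.09 and 7.62 in CA3 and 8.96, 9.10, 9.02 and 8.91 in CA1 (SE 0.16, adjusted p = 0.00257), without overlap. Of 28 genes of G protein signalling 5 were higher in CA1, among them PRKCB and RGS2 (−0.99, adjusted p = 0.00567), and RGS14 was higher in CA3.

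Adhesion and guidance genes, which sort axons and match synapses, gave more calls higher in CA1 in each list but that of semaphorins. All genes tested also did, with 5.27% higher in CA1 and 4.06% higher in CA3. All 5 called of 19 cadherins and protocadherins were higher in CA1 (list median −0.21). PCDH19 read 8.64, 7.37, 8.70 and 8.77 in CA3 and 9.84, 9.64, 9.88 and 9.64 in CA1, a difference of −1.38 (SE 0.19, adjusted p = 0.00554). PCDH7 read 8.66, 8.24, 8.08 and 8.84 in CA3 and 9.34, 9.24, 9.65 and 9.59 in CA1 (adjusted p = 0.00554), and both genes kept the call without each pair. In contrast, CDH18 (−0.65, 0.0319), CDH8 (−0.53, 0.0326) and CDH7 (−0.47, 0.0385) kept it in at most 1 of the 4 fits that left out a pair (adjusted p up to 0.147, 0.112 and 0.154). Of 17 ephrins and Eph receptors, EFNB2, EPHA7 (−0.72, 0.0486) and EPHA6 (−0.36, 0.0339) were higher in CA1 and 0 higher in CA3. EFNB2 read 8.46, 6.45, 8.12 and 8.38 in CA3 and 9.36, 9.46, 9.61 and 9.61 in CA1 (SE 0.27, adjusted p = 0.0107). CA3 number 14 was the low one, and without it the difference of EFNB2 was −1.21 (adjusted p = 0.000539).

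Of 23 netrin, Slit and Slitrk genes, 5 were higher in CA1 and SLIT1, a repellent of growing axons, was higher in CA3. SLIT1 read 9.46, 9.80, 9.11 and 9.50 in CA3 and 8.69, 8.83, 8.50 and 8.92 in CA1, a difference of 0.73 (SE 0.089, adjusted p = 0.00374), and its receptor ROBO2 was higher in CA1 (−0.55, adjusted p = 0.0201). The call of SLIT1 was kept without each pair and that of ROBO2 was lost without pair 13 or 14 (adjusted p up to 0.0665). NTNG1, a membrane-bound netrin (−0.98, 0.0159), SLITRK1 (−0.61, 0.0227) and SLITRK3 (−0.51, 0.0161) were higher in CA1. Of 22 semaphorin genes, the receptor PLXNC1 was higher in CA1 (−0.93, adjusted p = 0.00374), and the receptor NRP1 (0.53, adjusted p = 0.0348) and SEMA4A (0.30, adjusted p = 0.0479) higher in CA3. The share called was 13.6%, against 9.33% of all genes tested. NRP1 and SEMA4A were not called with the values as deposited.

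Synaptic adhesion genes had 9 of 33 higher in CA1 and 4 higher in CA3. The 4 were CBLN2, FLRT3, NRXN3 (0.64, 0.0406) and NECTIN1 (0.35, 0.0305), which include the ligand cerebellin 2 and a neurexin, the family it binds. On the CA1 side were the latrophilins ADGRL2 (−0.90, 0.0473) and ADGRL3 (−0.56, 0.0331), the family that FLRT3 binds, with the postsynaptic proteins LRRC7 (−0.96, 0.0128), NLGN1 (−0.57, 0.022) and LRRTM2 (−0.62, 0.0266). Teneurins TENM1 (−0.62, 0.0385) and TENM2 (−0.66, 0.0256), CNTN3 (−0.70, 0.0225) and CNTNAP2 (−0.50, 0.0163) were the others. Without single pairs 1 to 10 members were called higher in CA1 and 2 to 3 higher in CA3. Of 30 genes of the extracellular matrix, HAPLN4 and SPOCK1 (0.53, 0.0162) were higher in CA3, and COL11A1 (−0.90, 0.00545), VCAN (−0.68, 0.0353) and COL12A1 (−0.32, 0.0388) higher in CA1. Of 32 vesicle genes 4 were higher in CA3, among them complexin 1 (CPLX1, 0.72, 0.00928) and the active zone protein bassoon (BSN, 0.62, 0.00787), and SYT4 (−0.64, 0.0325) and RAB3C (−0.60, 0.0333) were higher in CA1.

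Transcription factors held 19 calls among 59 listed genes, 6 higher in CA3 and 13 higher in CA1. Higher in CA3 were ZFPM2, ZNF423 (0.94, adjusted p = 0.00659), the LIM homeobox factor LHX2 (0.76, 0.0103), EMX2 (0.39, 0.0334), and the bHLH factors NEUROD6 (0.48, 0.0205) and NEUROD2 (0.37, 0.0238) of pyramidal neurons. ZFPM2 read 7.94, 7.97, 7.26 and 8.06 in CA3 and 5.98, 6.27, 6.42 and 6.90 in CA1 (SE 0.16, adjusted p = 0.00312). Number 15 was lowest in CA3, and the groups did not overlap. On the CA1 side stood the 3 measured and called POU factors POU3F1, POU3F3 (−0.66, 0.0275) and POU3F2 (−0.61, 0.0171), with MEIS2, BCL11B and LMO4. LMO4 read 9.08, 9.12, 9.37 and 9.03 in CA3 and 10.17, 10.72, 9.78 and 10.07 in CA1, a difference of −1.03 (SE 0.15, adjusted p = 0.00787), and 4 of 4 other probe sets had the same sign. BCL11B was low on CA3 number 14, at 6.73 against 8.28 to 8.47, and was not called without pair 13 or 15 (adjusted p = 0.0675 and 0.0725). RORA (−0.67, 0.0405), TCF4 (−0.61, 0.0221), FOXP1 (−0.53, 0.0403), PBX3 (−0.54, 0.0139), BHLHE22 (−0.52, 0.0277), LMO1 (−0.47, 0.0359) and ZBTB18 (−0.36, 0.0489) were the other genes higher in CA1. Without single pairs 3 to 6 members were called higher in CA3 and 4 to 11 higher in CA1.

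Wnt ligands and a receptor were among the calls higher in CA3. Wnt proteins act through Frizzled receptors on patterning, axons and synapses. Of 46 genes of the Wnt, TGF-beta and FGF pathways 5 were higher in CA3: WNT5A, FZD7, WNT2 (0.70, 0.0246), WNT4 (0.49, 0.0238) and the FGF receptor FGFR1 (0.39, 0.0214). FZD7 read 8.16, 8.62, 8.09 and 8.10 in CA3 and 6.91, 7.28, 7.16 and 6.65 in CA1 (SE 0.096, adjusted p = 0.000558). The groups did not overlap. The activin subunit INHBB (−0.87, adjusted p = 0.00407), the Wnt feedback gene AXIN2 (−0.32, 0.0353) and the BMP antagonist NOG (−0.33, 0.0425) were higher in CA1. WNT4 was not called without pair 14 or 15 and FGFR1 not without pair 13, 14 or 15 (adjusted p up to 0.118 and 0.0725).

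Of 33 peptide and peptide receptor genes 4 were called, all higher in CA1: NTS, TAC1, the precursor of substance P (−0.61, 0.0411), neuropeptide Y (NPY, −0.44, 0.0159) and CARTPT. That share of 12.1% was near the 9.33% of all genes tested, and 17 of the 33 differences were above 0. NPY read 8.16, 8.11, 7.95 and 8.24 in CA3 and 8.65, 8.38, 8.39 and 8.80 in CA1 (SE 0.081, adjusted p = 0.0159), without overlap, and was not called without pair 13 or 15 (adjusted p = 0.0666 and 0.0735). Of 16 immediate early genes, which respond to neuronal activity, EGR1 (−0.45, 0.0455), EGR3 (−0.44, 0.0303) and HOMER1 were higher in CA1. The HOMER1 value is the one counted above among metabotropic receptor scaffolds. Which of its transcripts the probe set reads was not examined. Of 16 genes of corticosteroid and neurotrophin signalling, FKBP5, a glucocorticoid-induced chaperone, was higher in CA3 (0.62, adjusted p = 0.0264). HSD11B1, which regenerates cortisol (−0.41, adjusted p = 0.048), and the sorting receptors SORCS3 (−0.93, 0.0161) and SORCS1 (−0.71, 0.0273) were higher in CA1. The mineralocorticoid receptor NR3C2 was at 9.47, 9.52, 9.42 and 9.51 in CA3 and 9.55, 9.39, 9.41 and 9.22 in CA1, a difference of 0.087 that was not called, and at 7.40 in EC. FKBP5 lost its call without pair 13 or 14 (adjusted p up to 0.0863), and HSD11B1 lost it without pair 13, 14 or 15 and with the values as deposited.

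General neuronal genes were more often called higher in CA3 than the share of all genes. Of 13 genes common to excitatory neurons 6 were higher in CA3 and 1 higher in CA1, with a median of 0.32. The vesicular glutamate transporter SLC17A7 (VGLUT1) read 11.33, 11.45, 11.32 and 11.26 in CA3 and 10.94, 11.04, 10.91 and 10.88 in CA1, a difference of 0.40 (SE 0.074, adjusted p = 0.0159). Every CA3 array was above every CA1 array. Chromogranin A (CHGA, 0.84, adjusted p = 0.00583) and the large neurofilament NEFH (0.84, adjusted p = 0.0134) were higher in CA3, and NRGN, the calmodulin-binding neurogranin, higher in CA1 (−0.38, adjusted p = 0.049). Without single pairs 1 to 6 members were called higher in CA3. Of 20 interneuron genes PVALB was higher in CA3 (0.54, adjusted p = 0.037), and TAC1 and NPY higher in CA1. These calls were 15% of that list, against 9.33% of all genes tested. PVALB read 6.86, 7.65, 6.16 and 6.95 in CA3 and 6.41, 6.52, 5.80 and 6.72 in CA1, so that the groups overlapped while every pair was higher in CA3, and it was not called without pair 13, 14 or 15 (adjusted p up to 0.0987).

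Genes of immature neurons were higher in CA1 where they were called, 4 of 25 with 0 higher in CA3 and a median of −0.16. CD24, a surface protein of young neurons, read 8.36, 8.02, 9.33 and 8.27 in CA3 and 9.69, 10.21, 10.000 and 9.64 in CA1, a difference of −1.39 (SE 0.19, adjusted p = 0.00554), and 4 of 5 other probe sets had the same sign. DCX, a microtubule protein of migrating neurons (−0.51, 0.0345), the factor SOX11 (−0.51, 0.0416) and the growth cone protein GAP43 (−0.30, 0.0424) had smaller differences. These 3 lost the call without pair 13, 14 or 15 (adjusted p up to 0.0913, 0.112 and 0.181). Of 18 genes of radial glia and division, HOPX was higher in CA3 (0.43, 0.0281) and cyclin D1 (CCND1) higher in CA1 (−0.58, adjusted p = 0.0102). That share of 11.1% was near the 9.33% of all genes tested.

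Glial and vascular genes gave scattered calls. The share called was 21.1% of astrocyte, 16.7% of myelin, 15.4% of precursor, 5.88% of vessel and 11.8% of meningeal genes. Of all genes tested it was 9.33%. Of 19 astrocyte genes 4 were higher in CA3: ALDOC, FGFR3 (0.46, 0.0256), the neurotensin receptor NTSR2 (0.38, 0.0269) and ALDH1L1 (0.34, 0.0468). The mean of the 19 genes overlapped between the regions (9.02 to 9.53 in CA3 and 9.10 to 9.45 in CA1). Of 24 myelin genes, MOBP (−1.05, adjusted p = 0.0144), MBP (−0.52, adjusted p = 0.0486) and ERMN (−0.37, 0.0418) were higher in CA1 and QDPR higher in CA3 (0.51, 0.0229). MOBP was not called without pair 15 (adjusted p = 0.0614), without pairing (0.201) or with its probe set of highest mean over the 8 arrays, where its difference was −0.60 (adjusted p = 0.0943). MBP and ERMN were each not called when any 1 pair was left out, nor with the values as deposited, and their low CA3 arrays were numbers 14 and 15. Of 13 genes of oligodendrocyte precursors, VCAN and PDGFRA (−0.58, 0.0398) were higher in CA1, both low on CA3 number 14. Limma called 0 of 15 microglial genes (3 at an unadjusted p below 0.05), 0 of 12 ependymal and choroid plexus genes (1) and 0 of 17 zinc and metallothionein genes (10). Of 17 vessel genes the glucose transporter SLC2A1 was higher in CA3 (0.55, adjusted p = 0.0183), and of 17 meningeal genes FBLN1 was higher in CA3 (0.46, 0.0444) and PDGFRA higher in CA1.

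Genes of energy metabolism were higher in CA3 wherever they were called. Neurons draw ATP from glycolysis and from the respiratory chain of mitochondria. Of 32 genes of oxidative phosphorylation 10 were higher in CA3 and 0 higher in CA1 (median 0.25), and of 19 of glycolysis 8 and 0 (median 0.27). ALDOC, an aldolase found in astrocytes, read 11.88, 12.13, 12.05 and 11.83 in CA3 and 10.97, 10.95, 11.25 and 11.29 in CA1, a difference of 0.86 (SE 0.10, adjusted p = 0.00374). All CA3 arrays lay above CA1, as they did for the enzymes TPI1 (0.61, 0.012) and PGK1 (0.48, 0.0128). The cytochrome c1 gene CYC1 read 8.78, 9.23, 9.06 and 8.68 in CA3 and 8.34, 8.41, 8.42 and 8.33 in CA1, a difference of 0.56 (SE 0.094, adjusted p = 0.0122). COX7A2 (0.55, 0.015), UQCRC1 (0.50, 0.0144), COX5A (0.47, 0.0189) and ATP5F1B (0.44, 0.0157) of the respiratory chain and ATP synthase were of like size. The mean of the 32 genes was 10.06 on CA3 number 14, 9.75 to 9.81 on the other CA3 arrays and 9.60 to 9.65 on CA1. Without pairs 13, 14, 15 and 16 in turn 4, 5, 1 and 13 of the 32 were called higher in CA3, and 1, 3, 3 and 9 of the 19. The GAPDH ratio was lower in CA3 in the same pairs, and its part in these differences was not tested apart from the covariate fit above.

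Of 24 ribosomal protein genes RPL18 (0.49, 0.02), RPL8 (0.39, 0.035) and RPS9 (0.45, 0.0482) were higher in CA3, and none of the 3 was called without pair 13, 14 or 15 (adjusted p up to 0.0996, 0.156 and 0.218). The 3 calls were 12.5% of the list, near the 9.33% of all genes tested. Of 17 heat shock and stress genes, with a list median of 0.16, 4 were higher in CA1 and 1 higher in CA3. HSP90AA1, a chaperone, read 11.06, 10.47, 10.43 and 10.38 in CA3 and 11.38, 11.36, 11.08 and 11.22 in CA1, a difference of −0.68 (SE 0.10, adjusted p = 0.00838). HSPD1 (−0.65, 0.0295), HSPH1 (−0.58, 0.0298) and HSPA5 (−0.46, 0.0262) were also higher in CA1, and the stress gene DDIT4 higher in CA3 (0.36, 0.0229). Calls of HSPD1 and HSPH1 were lost without pair 13, 14 or 15 and that of HSPA5 without pair 14 or 15 (adjusted p up to 0.142, 0.136 and 0.126).

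Of 13 histocompatibility and complement genes 5 were higher in CA3 and 0 higher in CA1 (median 0.23). The human class I probe set named HLA-C read 9.17, 8.62, 8.88 and 9.23 in CA3 and 8.77, 7.97, 8.29 and 8.72 in CA1, a difference of 0.54 (SE 0.079, adjusted p = 0.00735). The groups overlapped, because numbers 13 and 16 were high in both regions, while every pair was higher in CA3. The probe sets named HLA-B (0.44, 0.0243) and HLA-F (0.40, 0.0353) are of the same family, whose members are close in sequence and may share signal. PSMB9, a subunit of the immunoproteasome (0.46, 0.0256), and complement C3 (0.37, 0.0445) were the other calls. HLA-C kept its call without each pair. PSMB9 kept it in 2 of the 4 fits that left out a pair (adjusted p up to 0.121). HLA-B, HLA-F and C3 kept it in 1 each (adjusted p up to 0.0983, 0.15 and 0.179).

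Adult CA3 and CA1 (numbers 1 to 4) were set beside the newborn arrays to see which differences had the same direction at both ages. In adults 531 genes were called (2.69%), 210 (1.06%) higher in CA3 and 321 (1.62%) higher in CA1. Of the 1845 newborn calls 290 were called in the same direction in adults, which is 15.7% of the newborn and 54.6% of the adult calls, and 4 in the opposite one. LATS2 differed by 1.81 in newborns and 2.89 in adults (adult adjusted p = 1.22e-07), MEIS2 by −1.67 and −2.11 (1.6e-06), PEX5L by −1.85 and −2.22 (1.65e-07), and KCNQ5 by 1.23 and 1.51 (0.000205). The RNA differed between ages as well, since the GAPDH ratio was 2.70 ± 0.209 in adult CA3 and 2.96 ± 0.247 in adult CA1, well above the newborn ratios. Age and ratio cannot be told apart for these regions.

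The test of the difference itself, newborn minus adult CA3 minus CA1, called 45 genes (0.228%), 16 with the newborn difference above the adult one and 29 below it. Without the pairing 7 were called, and without single pairs 8 to 39. CA4 differed by 2.19 in newborns and 0.42 in adults (difference between ages 1.77, SE 0.30, adjusted p = 0.0259). HAPLN4 differed by 1.84 and 0.26 (1.59, SE 0.19, adjusted p = 0.00527), and WIPF3, which regulates actin, by 1.13 and −0.18 (1.30, adjusted p = 0.0109). These 3 genes were higher in CA3 in newborns and not called in adults. GRIA3 differed by −1.85 in newborns and −0.31 in adults (−1.54, adjusted p = 0.0313), so that the difference of this 1 AMPA subunit was the smaller in adults.

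CPNE4, the CA3 marker, was higher in CA3 at both ages, by 0.64 in newborns and 2.50 in adults (−1.86, SE 0.17, adjusted p = 0.000156). The CA1-side difference of CAMK2D was −1.26 in newborns and −2.89 in adults (1.63, adjusted p = 0.0259), that of ETV1, an ETS transcription factor, −0.72 and −2.28 (1.56, adjusted p = 0.047), and that of the lipid kinase PIP5K1B −0.28 and −1.47 (1.19, adjusted p = 0.0279). Of the 12 genes named for their age difference, 4 belong to the myelin list, and these 4 had opposite signs at the 2 ages. MOBP was at −1.05 and 0.59 (−1.64, adjusted p = 0.0118), UGT8, which makes myelin galactolipids, at −0.67 and 0.92 (−1.59, adjusted p = 0.0263), MBP at −0.52 and 1.07 (−1.59, adjusted p = 0.00527) and the tight junction protein CLDN11 at −0.44 and 1.13 (−1.57, adjusted p = 0.0279). Of all 24 myelin genes 9 were higher in CA3 in adults and 0 higher in CA1, while in newborns 1 (QDPR) was higher in CA3 and 3 higher in CA1, with 7 of 24 differences above 0. In newborns the 4 named myelin genes were lower on CA3 numbers 14 and 15 than on 13 and 16, and UGT8 and CLDN11 were not called.

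**Figure D5:**
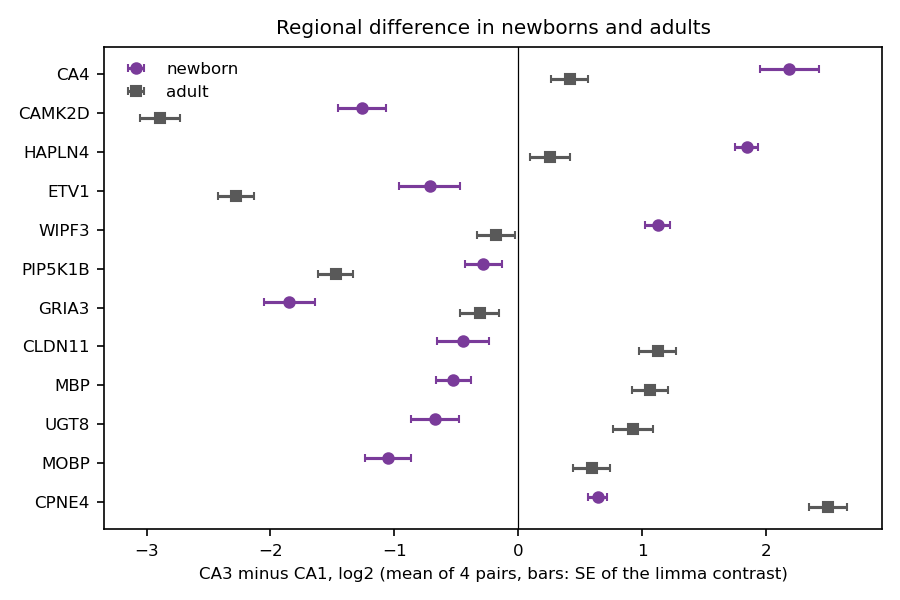
Difference between CA3 and CA1 on the log2 scale (horizontal axis) in newborns and in adults for the 12 named genes whose difference was called as unlike between the ages, with bars for the SE of the limma contrast over 4 pairs. CA4, HAPLN4 and WIPF3 lie right of 0 in newborns and near 0 in adults, and MOBP, UGT8, MBP and CLDN11 lie left of 0 in newborns and right of it in adults.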

How the data were processed

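The authors deposited log2 signals of 54675 probe sets for each of the 80 arrays, with values from 3.42 to 14.51. How the probes were summarised and scaled is not given in the sources used here. Per the labels' protocols, total RNA was taken with Trizol and labelled with biotin in an amplification of several cycles, which reads RNA from its 3' end.

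Quantile normalization was run over the 80 arrays with limma 3.58.1 in R 4.3.3. There were 62 control probe sets, 41091 with 1 gene symbol, 1801 with several and 11721 with none. The probe set of highest mean over the 80 arrays stood for each of 19775 genes, and no filter on low signal was used. The number of arrays, 4 per group, limits the precision.

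The differences of the 4 pairs were fitted with lmFit and eBayes, with Benjamini-Hochberg adjustment over all genes. Newborn and adult differences were compared in 1 fit of 8 pairs. The pairing rests on the title numbers and on a design of 1 array for each region of each animal. The labels do not state outright that a number is an animal. Deviations from the group means correlated by 0.186, 0.107, 0.2 and −0.0399 in same-numbered pairs (mean 0.113). Such deviations cancel out within each group, so the average in other pairs (−0.0377) largely follows from that mean. It is no separate check of the pairing. The highest correlation between 2 of the 8 arrays was 0.9951, so that no library was a copy of another.

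Genes were named by a rule: among calls with the same sign in 4 of 4 pairs and a group mean above the median gene mean of 5.98, and with no uncharacterised locus, the 15 largest in each direction. For newborn against adult the rule took the 6 largest in each direction. It also took up to 5 called members of each of 45 lists, and all members of the field marker and ionotropic glutamate receptor lists. Other called list members were named after their values were seen, to complete a count. The comparison, lists and rules were chosen with earlier results of these data known.

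Alternatives were the values as deposited, median centring, normalization of the 8 arrays alone, no pairing, other sets of arrays behind the spread, the GAPDH ratio as covariate, a filter on dim genes, other choices of probe set, and leaving out each pair. The scripts were tested on simulated data with 200 of 19775 genes changed, fewer than were called here. Of changes of 0.5 log2, the newborn comparison recovered 32.5% and newborn against adult 0%. Of changes of 1 log2 they recovered 93.5% and 71.5%. A gene that was not called may therefore still differ. Python 3.11.15 with matplotlib 3.10.9 drew the figures.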

Additional observations from a re-analysis of the deposited data

Results flagged for a closer look

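In 28 of 326 groups of 4 arrays examined for the named genes, 1 array lay far from the other 3 by Dixon's test of the gap over the group's range. Chance flags about 1 in 20 such groups. Number 14 was the array apart in 18, number 15 in 7, number 16 in 2 and number 13 in 1. Values below are log2 signals, with the range of the other 3 arrays.

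CA3 number 14 lay below the others for BCL11B (6.73 against 8.28 to 8.47), CAMK2D (8.51 against 9.73 to 9.86), EFNB2 (6.45 against 8.12 to 8.46), HOMER1 (7.40 against 8.09 to 8.23), LRRC7 (6.39 against 7.17 to 7.21), MET (5.51 against 6.42 to 6.50), NTNG1 (5.62 against 6.81 to 7.04), PAM (9.18 against 10.51 to 10.72), PCDH19 (7.37 against 8.64 to 8.77), PEX5L (5.44 against 7.49 to 7.73), PRKCB (7.57 against 9.27 to 9.32) and VCAN (5.93 against 7.24 to 7.28). These genes were lower in CA3 than in CA1, so number 14 was the array farthest from CA1. It lay above the others for CIB2 (9.82 against 8.30 to 8.38), COX5A (11.59 against 11.31 to 11.34), FZD7 (8.62 against 8.09 to 8.16) and UQCRC1 (11.35 against 11.13 to 11.15), which were higher in CA3. In CA1, number 14 was high for CDC42BPA (8.46 against 7.99 to 8.06) and SLITRK1 (7.59 against 7.14 to 7.15).

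CA3 number 15 was low for CACNG2 (5.94 against 6.41 to 6.50), ELAVL2 (9.01 against 9.80 to 9.85), WNT5A (5.88 against 7.38 to 7.64) and ZFPM2 (7.26 against 7.94 to 8.06), and high for FGFR3 (8.68 against 8.07 to 8.12) and RPL18 (11.18 against 10.85 to 10.88). In CA1, number 15 was low for ROBO2 (6.75 against 7.13 to 7.16). The remaining arrays apart were CA3 number 16 for AMIGO2 (5.18 against 5.04 to 5.05), CA3 number 13 for HSP90AA1 (11.06 against 10.38 to 10.47) and CA1 number 16 for GRIA1 (8.70 against 9.17 to 9.19).

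For 12 named genes the difference between CA3 and CA1 was itself unlike in newborns and adults by the limma test. The newborn difference minus the adult one was positive for CA4 (1.77), CAMK2D (1.63), HAPLN4 (1.59), ETV1 (1.56), WIPF3 (1.30) and PIP5K1B (1.19). It was negative for CPNE4 (−1.86), MOBP (−1.64), UGT8 (−1.59), MBP (−1.59), CLDN11 (−1.57) and GRIA3 (−1.54). The GAPDH ratio differed between the ages in both regions, as given above, and its part was not tested.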

How the results depend on the processing

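Counts of calls depended on single pairs more than on the scaling. Leaving out 1 pair gave 392 to 2713 calls, 167 to 1129 of them higher in CA3 and 225 to 1584 higher in CA1. Higher in CA3 were 527 genes with the values as deposited, 463 with median centring and 362 of 1072 with the 16 pairs of all ages in 1 fit. The mean of all probe sets of a gene gave 1191 calls, 633 of them higher in CA1. With pairs 14 and 15 alone there were 4153 calls, 1827 higher in CA3 and 2326 higher in CA1, and SLC17A6, not called with 4 pairs, was at −0.37. Without the replicate block, that is without pairing, 1525 genes were called (674 higher in CA3, 851 higher in CA1), and 127 of the 162 named calls were kept. For newborn against adult that fit gave 7 calls, 2 above and 5 below, 9 were above with the values as deposited and 8 with median centring. Leaving out 1 pair of either age gave 8 to 39 calls there, 3 to 18 above and 5 to 21 below.

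With the GAPDH ratio difference as covariate limma called 0 genes, 0 in either direction, with 951 at an unadjusted p below 0.05. By construction this fit has 2 residual degrees of freedom and extrapolates to a ratio difference that no pair had. In it 25 of the 162 named calls changed sign: ADCY8 (0.25), CARTPT (0.067), CTXND1 (0.94), HSD11B1 (0.47), MAN1A1 (0.0017), RYR3 (0.14) and SLITRK1 (0.082) to positive, and CACNG2 (−0.16), CALB2 (−0.11), CPLX1 (−0.46), ELAVL2 (−0.30), FKBP5 (−0.94), KCNC1 (−0.96), KCNQ5 (−0.19), LPL (−0.17), MPPED2 (−0.21), NEFH (−0.41), NETO1 (−0.31), NPTX1 (−1.42), NRP1 (−0.54), PCP4 (−1.16), TSPAN18 (−0.31), VWA5A (−0.51), WNT5A (−0.57) and ZFPM2 (−0.37) to negative. Under the other alternatives all measured named calls kept their sign, and the cause of lost calls was not tested. The difference of the GAPDH ratio was −0.198 to −0.243 without single pairs and −0.237 with the values as deposited. The filter on dim genes left out 5 named calls, AMIGO2, ERMN, KCNQ5, MAN1A1 and RNF182, and kept 1616 of the 1845 calls. The values used here carry no detection call, so how far dim signals lie above background was not measured.

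With the mean of all probe sets of a gene, the 47 named calls lost were ALDH1L1, BCL11B, CACNA1E, CACNG3, CDC42BPA, CDH7, CDH8, CNTNAP2, COL12A1, COX5A, DCX, EGR1, ENO1, EPHA6, EPHA7, FBLN1, FGFR1, FKBP5, GABBR1, GAP43, GRM7, HLA-F, HOMER3, HOPX, HSD11B1, HSPA5, HSPD1, ITPR1, KCNAB2, MBP, MET, NLGN1, NPTX1, NRP1, NTNG1, PCP4, PDGFRA, PVALB, RAB3C, RPS9, SEMA4A, SOCS2, SORCS1, SOX11, TAC1, VCAN and VWA5A.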
